A study of Mus musculus with 6 samples.

Results

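The Schlafen and Ifi200 families are interferon-inducible genes that lie in a tandem cluster each on mouse chromosomes 11 and 1. The genes described here are 10 members chosen by gene symbol, namely Slfn1, Slfn2, Slfn4, Slfn5, Slfn8 and Slfn9 of the first family and Ifi203, Ifi204, Mnda and Aim2 of the second. All 10 were present among the 23282 gene entries of each count table, and 9 were among the 11092 entries that passed the filter on low counts. Messenger RNA had been measured in RAW 264.7 cells, a mouse macrophage line that turns into multinucleated, bone-resorbing osteoclasts when it is differentiated. All 6 samples came from day 5 of that differentiation, 3 of them labelled as controls and 3 labelled CPN. The series title names a chaperonin of 60 kDa as the agent, but the sources used here do not give its origin, its dose, the time of its addition or the differentiation medium. No genotype or further treatment is given, so the control and CPN samples differ, per the labels, in CPN alone. RAW 264.7 is a single transformed line of BALB/c origin, and whether the 3 samples of a group were grown as separate cultures is not stated. The p-values therefore measure a spread among samples that may be only technical. The comparison asks which of these genes were expressed differently under CPN.

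Schlafen proteins are named after the German word for sleep because the first of them slowed the growth of T cells. They come in a short form (Slfn1 and Slfn2), an intermediate form (Slfn3 and Slfn4) and a long form with a helicase-like end (Slfn5, Slfn8, Slfn9 and Slfn14). They are known for holding lymphocytes and monocytes in quiescence and for cutting or binding transfer RNA during viral infection. Ifi200 proteins pair a pyrin domain, which binds other pyrin domains, with a HIN domain, which binds double-stranded DNA. Aim2 is the cytosolic DNA sensor of the family that joins the adaptor ASC and caspase-1 in an inflammasome. Ifi204 and its relatives work mostly in the nucleus, where they have been linked to DNA sensing and to differentiation of myeloid cells. Type I interferon drives many of these genes through the interferon-stimulated response element (ISRE), a short DNA motif bound by the ISGF3 complex and by interferon regulatory factors.

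That element is shown first because it marks which members carry a classical interferon motif next to a start site. The letters GAAANNGAAA, or TTTCNNTTTC on the other strand, were searched in the 250 bases before each start site in the RefSeq promoter table, build GRCm38.p6, which is the sequence of mm10. A promoter was given for 9 of the 10 members and for 19 of the 22 genes of both families in the files. The letters were found in 5 of those 9 members (55.6%) and in 10 of the 19 family genes (52.6%), against 2.97% of all 32817 promoters in the table. The family shares count genes with a match at any of their starts, whereas the 2.97% counts single start sites, so the units differ. The clustered genes arose by tandem duplication and are not independent of each other. Each window below runs 30 bases from 5′ to 3′ on the strand of its gene, with the matched letters in capitals.
Slfn5, chr11:82951937-82951966, plus strand: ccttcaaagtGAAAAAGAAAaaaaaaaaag
Slfn8, chr11:83020839-83020868, minus strand: atttgagcagTTTCGTTTTCcccaaaagca
Slfn9, chr11:82991856-82991885, minus strand: atccgagcagTTTCGTTTTCccaaaaacaa
Ifi203, chr1:173942508-173942537, minus strand: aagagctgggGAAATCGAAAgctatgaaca
Mnda, chr1:173913064-173913093, minus strand: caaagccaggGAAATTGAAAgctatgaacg
Mndal, chr1:173880204-173880233, minus strand: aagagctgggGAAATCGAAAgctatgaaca
Ifi205, chr1:174031870-174031899, minus strand: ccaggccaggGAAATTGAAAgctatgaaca
AI607873, chr1:173741831-173741860, minus strand: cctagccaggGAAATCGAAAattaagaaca
Pydc3, chr1:173673597-173673626, plus strand: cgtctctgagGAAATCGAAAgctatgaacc
The Pydc4 window has the same letters as that of Pydc3. The first 5 windows belong to members and the rest to other genes of the Ifi200 family.

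The windows fall into a few related sequences. The match read GAAATCGAAA in 5 genes (Ifi203, Mndal, Pydc3, Pydc4 and AI607873), GAAATTGAAA in 2 (Mnda and Ifi205), GAAAACGAAA on the opposite strand in 2 (Slfn8 and Slfn9) and GAAAAAGAAA in Slfn5. The windows of Ifi203 and Mndal were identical over all 30 bases. Counted from the start site in the table to the first matched base, the motif lay 35 bases upstream in Ifi203, 36 in Mndal, 37 in Mnda, 41 in AI607873, 45 in Slfn9, 48 in Slfn8, 58 in Pydc3, 73 in Pydc4, 134 in Ifi205 and 155 in Slfn5. Slfn8 and Mndal have a second start site in the table with a match in its window. For Slfn8 it is the same stretch, 136 bases before that start, whereas Mndal has another match, TTTCTCTTTC, 54 bases before it. The windows and distances given are those of the other start, and a gene was counted once if any of its starts had a match. For Slfn5, Ifi203, Mnda, Mndal, AI607873, Pydc3 and Pydc4 that start site lies inside the gene model, so other transcripts of the gene begin further upstream. The letters of the interferon-gamma-activated site, TTCNNNGAA, occurred in 7.01% of all promoters and, among the family genes, in Ifi202b. A match describes letters and not a bound site.

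The promoters of Slfn1, Slfn2, Slfn4 and Aim2 held neither set of letters in this window. The Aim2 window, chr1:173420354-173420603, lies inside the gene model, so the bases before the upstream end of that model were not searched. The Slfn4 start site also lies inside its gene model, but its window reaches past the upstream end. The 250 bases before the start of Slfn2 are given as the contrast, because Slfn2 was among the genes that rose.
Slfn2, chr11:83064862-83065111, plus strand: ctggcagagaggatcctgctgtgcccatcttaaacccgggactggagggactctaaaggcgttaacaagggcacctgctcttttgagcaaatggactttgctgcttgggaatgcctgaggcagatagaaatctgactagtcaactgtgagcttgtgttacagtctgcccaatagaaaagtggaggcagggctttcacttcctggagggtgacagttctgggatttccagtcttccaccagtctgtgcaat

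Library totals lay between 7957228 and 9713938 counts, so that 3 counts correspond to between 0.294 and 0.393 CPM (counts per 1000000 counts of the library, with TMM factors throughout). Rn45s, the precursor of ribosomal RNA, made up 9.04% to 16.6% of each library. Zeros were more frequent than sampling gives, at 14.0% to 41.2% of values in a library among 707 genes with a mean of 6 to 12 counts, so low counts carry more than counting error. Control 2 stood somewhat apart from the other controls. Its log2 CPM values correlated across genes at 0.921 and 0.937 with control 1 and control 3, which correlated at 0.96 with each other. It was the highest control library for 7 of the 9 tested members, and values without it are given beside the members and pathway genes whose call, sign or fold it moved most. In bulk samples such as these, fewer cells of a type and less RNA per cell cannot be told apart.

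In CPN cells 5 of the 9 tested members were higher, namely Slfn2, Slfn4, Slfn5, Ifi203 and Ifi204, and 0 were lower. Among all 11092 tested genes 14.0% passed at an adjusted p of 0.05 (edgeR's quasi-likelihood test, p adjusted by Benjamini-Hochberg). Of all tested genes, 7.62% were higher and 6.39% lower. At an unadjusted p of 0.05, 6 members were higher and 0 lower, and DESeq2 and limma-voom also called 0 lower. The remaining 4 tested members, Slfn8, Slfn9, Mnda and Aim2, did not pass. In 6 members every CPN library was above every control library, a pattern shown by 16.9% of all tested genes, and in 0 members was every CPN library below, as in 15.7% of all genes. The median log2 fold change was 1.49 over the 9 tested members and -0.01 over all tested genes. Leaving out 1 library at a time gave 4 to 6 members higher. Without both control 3 and CPN 1, the 2 libraries with the fewest zeros, 1 member was higher (Ifi203), while the number of genes called fell from 1554 to 446.

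**Figure D1:**
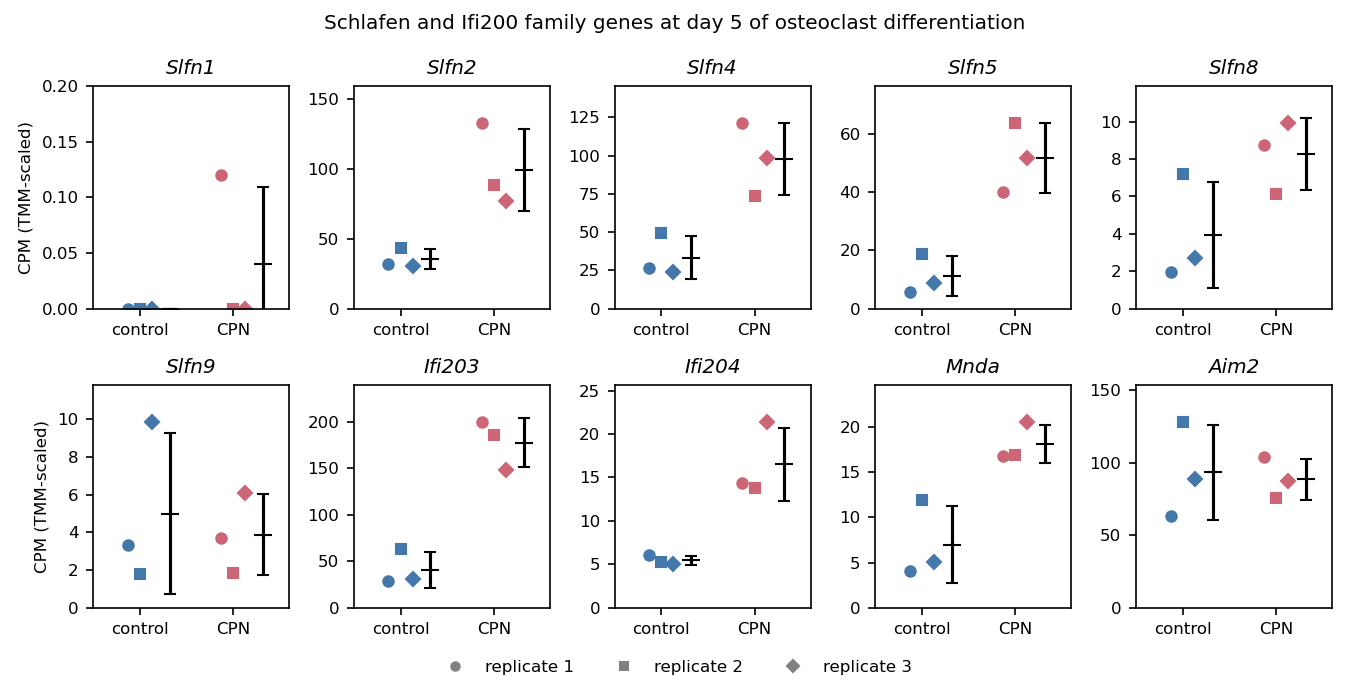
TMM-scaled CPM of the 10 members (vertical axes, each panel with its own scale from 0) in the 3 control and 3 CPN libraries, with replicate number as marker shape and the mean and SD of each group drawn beside the points. In Slfn2, Slfn4, Slfn5, Ifi203, Ifi204 and Mnda all 3 CPN points lie above all 3 control points, whereas in Slfn8, Slfn9 and Aim2 the groups overlap, and Slfn1 has 1 count in all.

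Of the short Schlafen genes, Slfn2 was well expressed and Slfn1 was all but absent. Slfn2 (chr11:83065112-83070678) keeps T cells and monocytes quiescent, as its loss-of-function mutant mouse is known for. It was measured at 32.2, 43.5 and 30.3 CPM in control 1, 2 and 3 and at 132.7, 88.7 and 76.9 CPM in CPN 1, 2 and 3. The lowest CPN library was thus well above the highest control. Its mean rose from 35.3 ± 7.14 to 99.4 ± 29.4 CPM (SD, n = 3 each), a log2 fold change of 1.49 ± 0.26 (SE, adjusted p = 0.00173). Slfn1 (chr11:83116820-83122670), the founding gene, gave 1 count in CPN 1 and 0 in the other libraries, which is below the 3 counts that a 0 allows.

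The intermediate form Slfn4 (chr11:83175172-83190216) is a gene of myeloid cells. It was measured at 26.4, 49.6 and 23.8 CPM in the controls and 121.2, 73.9 and 98.1 CPM in the CPN libraries. Control 2 was the highest control and still below every CPN library. The mean rose from 33.3 ± 14.2 to 97.7 ± 23.7 CPM, a log2 fold change of 1.56 ± 0.30 (adjusted p = 0.00381). Slfn3, its neighbour and the other intermediate gene, had 7, 9 and 6 counts in the controls and 25, 8 and 51 in the CPN libraries, and was not tested.

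Among the long forms, Slfn5 was the member that rose. Slfn5 (chr11:82951349-82964850) is a nuclear protein that is induced by type I interferon. Its levels were 5.89, 18.8 and 8.88 CPM in the controls and 40.0, 63.8 and 51.7 CPM in the CPN libraries. The lowest CPN value was above the highest control by a wide margin, though control 2 was above the other controls. The mean went from 11.2 ± 6.76 to 51.8 ± 11.9 CPM, a log2 fold change of 2.22 ± 0.40 (adjusted p = 0.00234), or 4.64-fold. Without control 2 the log2 fold change was 2.83 (adjusted p = 2.17e-05).

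Slfn8 and Slfn9, the long forms beside it, were low and did not pass. Slfn8 (chr11:83002125-83020810) was at 1.96, 7.19 and 2.69 CPM in the controls and 8.76, 6.16 and 9.93 CPM in the CPN libraries. The groups overlapped because control 2 was above CPN 2. The log2 fold change was 1.07 (95% interval -0.37 to 2.51, adjusted p = 0.350), and 1.84 without control 2 (adjusted p = 0.102). Slfn9 (chr11:82974316-82991830) was at 3.34, 1.80 and 9.82 CPM in the controls and 3.72, 1.83 and 6.08 CPM in the CPN libraries, with control 3 highest of all 6. Its log2 fold change was -0.36 (95% interval -2.19 to 1.47, adjusted p = 0.847), and without control 3 it was 0.59. The Slfn8 interval holds no change as well as rises as large as that of Slfn4, and the Slfn9 interval holds changes of either sign. The coefficient of variation over the controls was 71.7% for Slfn8 and 85.4% for Slfn9, where counting error alone gives 17.2% and 15.4%. For Ifi204, at a similar level, it was 10.1% against 14.7% from counting error.

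The remaining Schlafen genes gave little. Slfn10-ps, an annotated pseudogene of the long form, was at 24.5, 41.9 and 21.0 CPM in the controls and 43.6, 38.9 and 27.4 CPM in the CPN libraries, with overlap and a log2 fold change of 0.33 ± 0.31 (adjusted p = 0.572). Slfn14 and the distant relative Slfnl1 were at 0 in every library.

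Of the 4 Ifi200 members, Ifi203 had the smallest p. Ifi203 (chr1:173920400-173942866) encodes a nuclear protein of blood cells. It was measured at 29.2, 63.5 and 30.7 CPM in the controls and 199.3, 185.6 and 148.1 CPM in the CPN libraries. The lowest CPN library was well above control 2, the highest control. The mean rose from 41.2 ± 19.4 to 177.7 ± 26.5 CPM, a log2 fold change of 2.11 ± 0.29 (adjusted p = 0.000369), or 4.32-fold. It was the only one of the 9 tested members that still passed without both control 3 and CPN 1 (adjusted p = 0.0282).

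Ifi204 (chr1:173747293-173767069), a DNA sensor that signals through STING and is often set beside human IFI16, was lower in level. It was measured at 6.08, 5.27 and 5.03 CPM in the controls and 14.4, 13.8 and 21.3 CPM in the CPN libraries. The controls lay close together and below every CPN library. The log2 fold change was 1.59 ± 0.43 (adjusted p = 0.0270). This call ended when any library but control 2 was left out, where the adjusted p became 0.0546 (control 1 left out), 0.0954 (control 3), 0.0627 (CPN 1), 0.0510 (CPN 2) and 0.110 (CPN 3), while the log2 fold change stayed between 1.37 and 1.72.

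Mnda (chr1:173896339-173913087) is the files' name for the gene that RefSeq calls Ifi211, after the human myeloid nuclear differentiation antigen. It was at 4.02, 11.9 and 5.03 CPM in the controls and 16.8, 16.9 and 20.5 CPM in the CPN libraries. All CPN libraries were above all controls, with control 2 nearest to them. The log2 fold change was 1.38 ± 0.47 and did not pass (95% interval 0.35 to 2.40, adjusted p = 0.0754). Without control 2 it was 2.01 (adjusted p = 0.00705), and it passed with DESeq2 (adjusted p = 0.0375), with limma-voom (0.0332) and with no low-count filter (0.0474).

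Aim2 (chr1:173349547-173466040) stood at a similar level in both groups. It was measured at 63.3, 127.8 and 88.9 CPM in the controls and 103.6, 75.6 and 87.1 CPM in the CPN libraries. The CPN values fell within the range of the controls, of which control 2 was the highest and control 1 the lowest. The log2 fold change was -0.07 ± 0.25 (95% interval -0.62 to 0.47, adjusted p = 0.901). That interval lies wholly below the interval of Ifi203, 1.49 to 2.74. Without control 2 the log2 fold change was 0.24 and without CPN 2 it was 0.04.

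Of the other Ifi200 genes listed, 8 were in the files and 6 were tested. Of those 6, 3 were higher and 0 lower, with a median log2 fold change of 1.52. At an unadjusted p of 0.05, 4 were higher and 0 lower, and DESeq2 and limma-voom called 3 higher and 0 lower. Each of these counts, and the median, includes Pyhin1. That gene was at 0 in every control, passed the low-count filter through the CPN libraries alone and could only come out higher. Among all tested genes 7.62% were higher and 6.39% lower by edgeR. Mndal, a close relative of Mnda, was the most abundant gene of the family by counts, at 79.8, 141.8 and 95.2 CPM in the controls and 530.9, 370.5 and 314 CPM in the CPN libraries, with no overlap. Its log2 fold change was 1.94 ± 0.25 (adjusted p = 0.000237). Ifi202b, which carries HIN domains but no pyrin domain and is known to hold Aim2 in check, was at 49.3, 47.3 and 28.6 CPM in the controls and 90.4, 102.9 and 77.4 CPM in the CPN libraries. It rose by a log2 fold change of 1.11 ± 0.25 (adjusted p = 0.00896), a call that ended without CPN 2 (adjusted p = 0.0524).

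Pyhin1, which RefSeq calls Ifi209, was at 0 in all controls and had 26, 19 and 45 counts in the CPN libraries. Against a floor of 3 counts per library that is 11.1-fold higher (edgeR, adjusted p = 0.0127). That floor covers counting error only, and zeros were more frequent than sampling gives, so 11.1 is not a firm lower bound. The call ended without control 3 (adjusted p = 0.0507), without CPN 1 (0.0506) or without CPN 3 (0.0580). Ifi205 was above the controls in every CPN library, at 7.20 ± 3.56 against 1.89 ± 0.96 CPM, but did not pass (adjusted p = 0.133).

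AI607873, which RefSeq calls Ifi207, was at 75.3, 72.0 and 56.6 CPM in the controls and 67.4, 62.2 and 98.6 CPM in the CPN libraries, with overlap. Its log2 fold change was 0.16 (95% interval -0.34 to 0.66, adjusted p = 0.725), an interval below those of Ifi203 and of Mndal (1.40 to 2.48). Pydc3 was at 1.5 CPM in the controls and 2.17 CPM in the CPN libraries on average (adjusted p = 0.820). Pydc4 had 2 counts in all, and BC094916 had 0 in the controls and 15 in the CPN libraries. So the family held abundant genes with a rise, Mndal, Ifi203 and Ifi202b, beside abundant genes whose values overlapped, Aim2 and AI607873.

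**Figure D2:**
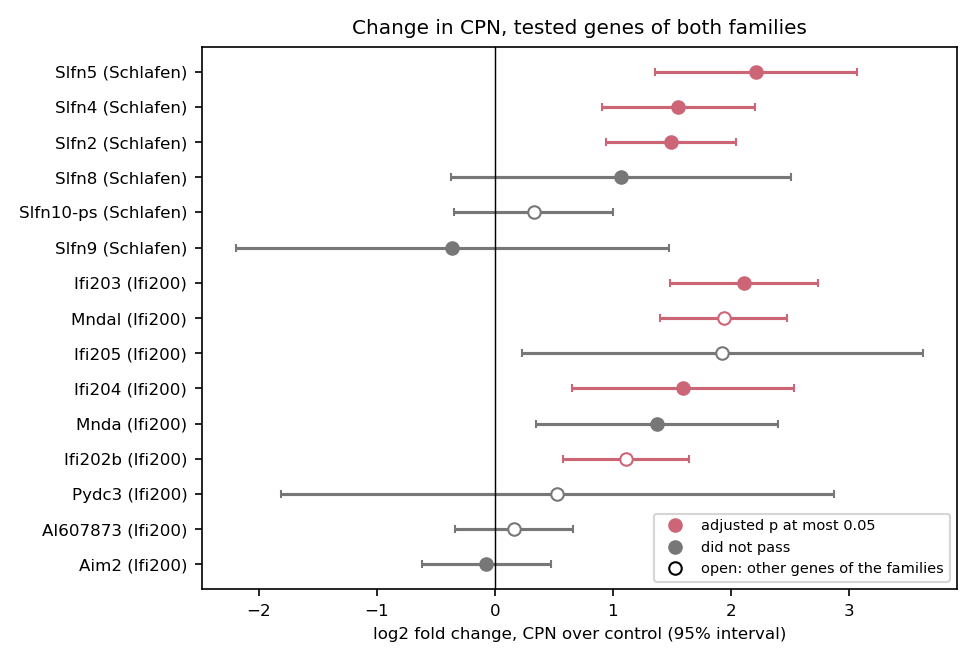
Log2 fold change of CPN over control with its 95% interval (horizontal axis) for the tested genes of both families, members filled and other genes open, in red where the adjusted p was at most 0.05. Pyhin1 is left out because it was at 0 in every control. The intervals of Aim2 and AI607873 span 0 and end at 0.47 and 0.66, while those of Ifi203, Mndal and Slfn5 begin at 1.49, 1.40 and 1.36.

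The genes also supplied different shares of each family's counts in the 2 groups. Each transcript gives about 1 tag in 3′ sequencing whatever its length, but genes differ in how well their tags map, so these shares describe counts and not numbers of transcripts. Shares within a family are also bound together, since a gene at an unchanged level loses share when others rise. Aim2 averaged 93.3 CPM in the controls and 88.7 CPM in the CPN libraries, so a lower share does not by itself show a fall in its level. The 95% interval of its log2 fold change, -0.62 to 0.47, holds a fall as well as a rise. All Ifi200 genes together were at 309.6, 473.5 and 313.9 CPM in the controls and 1032, 838 and 788.9 CPM in the CPN libraries. Aim2 took 20.4%, 27.0% and 28.3% of these counts in the controls and 10.04%, 9.02% and 11.04% in the CPN libraries. Mndal took 28.7% ± 2.52 in the controls and 45.2% ± 5.88 in the CPN libraries, and Ifi203 took 10.9% ± 2.20 and 20.1% ± 1.81. The groups did not overlap in any of these 3 shares. AI607873 took 24.3%, 15.2% and 18.0% in the controls and 6.54%, 7.42% and 12.5% in the CPN libraries.

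The Schlafen genes together were at 94.96, 163.9 and 97.2 CPM in the controls and 353, 274.3 and 276.5 CPM in the CPN libraries. Slfn2 and Slfn4 took similar shares in both groups, 30.5% ± 3.71 and 27.5% ± 2.88 in the controls and 32.6% ± 4.89 and 32.2% ± 4.64 in the CPN libraries. The share of Slfn10-ps was 25.8%, 25.6% and 21.6% in the controls and 12.3%, 14.2% and 9.92% in the CPN libraries. Slfn5 took 8.94% ± 2.65 in the controls and 17.8% ± 6.03 in the CPN libraries, where CPN 1 (11.3%) lay just below control 2 (11.5%). The Slfn5 groups thus overlapped in share although they did not in CPM.

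Ratios of 2 genes within a library do not depend on how libraries are scaled. Ifi203 stood at 0.462, 0.497 and 0.346 of Aim2 in the controls and at 1.93, 2.46 and 1.70 of it in the CPN libraries, a 4.66-fold difference. Of 4 such ratios, chosen after the values were seen, this one, Ifi203 to AI607873 (4.14-fold) and Slfn2 to Slfn10-ps (2.15-fold) were separate between the groups, with an exact two-sided permutation p of 0.1 each, the smallest that 3 against 3 allows, and an adjusted p of 0.133 over the 4. Slfn5 to Slfn9 gave an exact permutation p of 0.2, adjusted 0.2, with control 2 (10.5) above CPN 3 (8.51). None of the 4 could have reached 0.05 in this design.

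**Figure D3:**
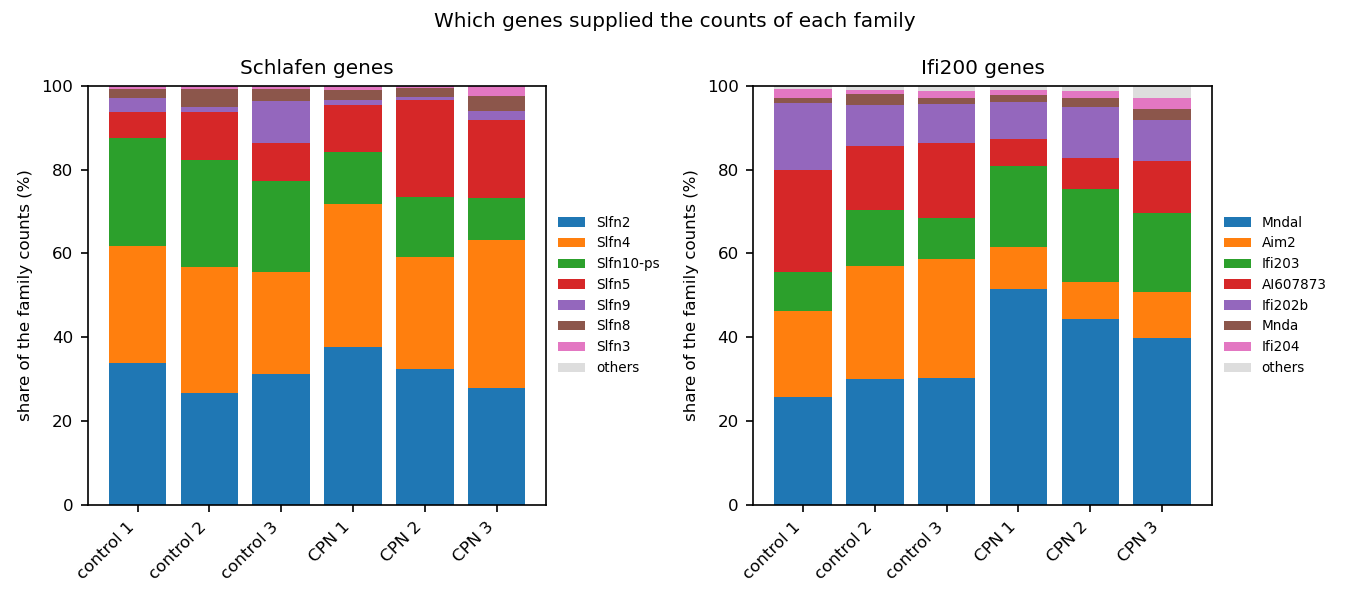
Share of each family's counts (vertical axis, percent) taken by each gene in each of the 6 libraries, Schlafen genes on the left and Ifi200 genes on the right. The Aim2 band narrows from between 20.4% and 28.3% in the controls to between 9.02% and 11.04% in the CPN libraries, while the Mndal band widens to between 39.8% and 51.5%.

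Close copies limit how far some of these genes can be told apart. In the last 500 bases of the GENCODE vM21 transcripts, where 3′ tags fall, the share of 50-base stretches that occur in another gene was 0% for Slfn1, Slfn2, Slfn4 and Slfn5, 0.52% for Aim2, 1.77% for Ifi204 and 9.1% for Ifi203. It was 15.8% for Slfn9 and 25.5% for Slfn8, which share them with each other and with Slfn10-ps. For Mnda it was 77.4%, shared with Ifi205 and Mndal, so the values of Mnda, Ifi205 (39.6%) and Mndal (25.9%) are uncertain. For Pyhin1 it was 47.8%, shared with Ifi214, so its counts may not be its own alone. A low share covers only the gene's own last 500 bases and not the ends of other genes that match it. The shared stretches of Mndal also occur in Ifi204 and Ifi203, those of AI607873 (3.54%) in Ifi204, and most of those of Slfn3 (16%) in Slfn4. Whether tags of these genes were counted for Ifi204, Ifi203 or Slfn4 was not tested. How reads with several alignments were handled is not stated in the sources used here. The cells are of BALB/c origin and the build is C57BL/6J, and the part of strain differences was not tested.

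Genes next to the clusters were read as a comparison. The Schlafen cluster spans 335 kb (chr11:82951349-83286726). Near it, Nle1 had a log2 fold change of -0.27 ± 0.41 (adjusted p = 0.749) and Ap2b1 of 0.50 ± 0.22 (adjusted p = 0.168), so neither passed. Without adjustment Ap2b1 passed 0.05 in edgeR, and DESeq2 and limma-voom called neither gene. Unc45b had 6 counts, and Fndc8 and Rasl10b had 0. The Ifi200 cluster spans 682 kb (chr1:173349547-174031755) and lies among silent genes. Cadm3, which overlaps Aim2, had 2 counts in all 6 libraries, and Ackr1, Mptx2, Olfr433, Olfr432 and Olfr430 had 0. Slfn5os, which overlaps Slfn5, also had 0 counts.

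The upstream interferon pathway was partly higher. Of 15 genes for interferons, their receptor and its signalling, 13 were tested, 4 were higher and 0 lower, with a median log2 fold change of 0.73. At an unadjusted p of 0.05, 7 were higher and 1 lower, and DESeq2 and limma-voom called 4 higher and 0 lower. Over all tested genes 7.62% were higher and 6.39% lower by edgeR, the shares to set beside this list and those below. Irf7, the factor that amplifies type I interferon, rose from 5.12 to 60.7 CPM (log2 fold change 3.56 ± 0.35, adjusted p = 3.61e-05). The receptor chain Ifnar2 rose from 103.8 to 198.8 CPM (0.94 ± 0.19, adjusted p = 0.00463). Usp18, the protease that dampens the receptor, rose from 4.86 to 33.5 CPM (2.78 ± 0.52, adjusted p = 0.00306), and by 3.38 without control 2. Stat2 (0.84 ± 0.34, adjusted p = 0.129) and Irf9 (0.73 ± 0.30, 0.134), which encode subunits of ISGF3, did not pass. Ifnb1 gave 1 count in all and Ifna4 gave 0, at 1 time point.

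Canonical interferon-stimulated genes were mostly low in the controls, and several were higher in CPN cells. Of 15 listed, 11 were tested, 6 were higher and 0 lower, with a median log2 fold change of 2.97. Without adjustment 9 were higher and 0 lower at 0.05. DESeq2 called 8 higher, limma-voom 5, and neither called any lower. Ifi44 rose from 22.7 to 235 CPM (3.37 ± 0.20, adjusted p = 1.4e-06), the ubiquitin-like Isg15 from 2.95 to 52.3 CPM (4.15 ± 0.48, adjusted p = 0.000115) and Rsad2, the antiviral enzyme viperin, from 3.07 to 24.2 CPM (2.97 ± 0.51, adjusted p = 0.00186). The summed level of the list was 41.6, 64.3 and 42.2 CPM in the controls and 389.4, 469.4 and 352.5 CPM in the CPN libraries. Control 2 was the highest control here too. Much of this sum was Ifi44 alone, at 21.1, 26.7 and 20.3 CPM in the controls and 220.8, 254.9 and 229.4 CPM in the CPN libraries.

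Several genes of inflammasome action were higher while the values of Aim2 overlapped. Of 7 tested genes of the Aim2 inflammasome and pyroptosis, 3 were higher and 0 lower, with a median log2 fold change of 1.13. At an unadjusted p of 0.05, 3 were higher and 1 lower, and DESeq2 and limma-voom called 3 higher and 0 lower. Casp1, the protease of the complex, rose from 19.7 to 85.0 CPM (2.11 ± 0.27, adjusted p = 0.000222). Casp4, the protease that senses cytosolic lipopolysaccharide, rose from 12.05 to 69.1 CPM (2.53 ± 0.43, adjusted p = 0.00182), and by 3.43 without control 2. Ninj1, which ruptures the membrane of dying cells, rose from 83.8 to 182.8 CPM (1.13 ± 0.21, adjusted p = 0.00306). Pycard, the gene of the adaptor ASC, averaged 0.76 CPM in the controls and 2.25 CPM in the CPN libraries and did not pass (adjusted p = 0.522). The pore gene Gsdmd was at 74.6 and 49.98 CPM (-0.58 ± 0.23, adjusted p = 0.118). Il1b had 0 counts in the controls and 10, 63 and 21 in CPN 1, 2 and 3, most of them in CPN 2, and was not tested.

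The genes of the other cytosolic DNA sensing route, through cGAS and STING, had 1 gene that passed. Of 8 tested, 1 was higher and 0 lower, with a median log2 fold change of -0.12. At an unadjusted p of 0.05, 1 was higher and 1 lower, and DESeq2 and limma-voom called 1 higher and 1 lower. With 7.62% of all tested genes higher and 6.39% lower by edgeR, 1 gene of 8 is near the share of all genes. The kinase Ikbke rose from 3.46 to 36.9 CPM (3.42 ± 0.51, adjusted p = 0.000711), and by 4.27 without control 3. Samhd1, which degrades nucleotides, was at 155.6 and 97.1 CPM (-0.68 ± 0.22, adjusted p = 0.0564) and was the gene called lower by DESeq2 (adjusted p = 0.0241) and limma-voom (0.0240). Ddx41 was at 72.6 and 57.6 CPM (-0.33 ± 0.21, adjusted p = 0.354).

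Cell cycle genes were listed because Slfn2 is known for quiescence. Of 21 tested, 5 were lower and 2 higher, with a median log2 fold change of -0.47. At an unadjusted p of 0.05, 7 were lower and 4 higher. DESeq2 called 5 lower and 3 higher, and limma-voom 4 lower and 2 higher. By edgeR 6.39% of all tested genes were lower and 7.62% higher. The 2 genes of the list called higher were Ccnd2 (2.02 ± 0.525, adjusted p = 0.021) and Id2 (1.11 ± 0.30, adjusted p = 0.0265). The proliferation marker Mki67 fell from 164.1 to 22.5 CPM (-2.86 ± 0.27, adjusted p = 2.46e-05) and the kinase Cdk1 from 170.2 to 55.2 CPM (-1.63 ± 0.26, adjusted p = 0.00106). Cdkn1b, which encodes the inhibitor p27 and so acts against the cycle, fell as well, from 120 to 66.8 CPM (-0.84 ± 0.20, adjusted p = 0.0124), a call that ended without control 3 (adjusted p = 0.0694) or without CPN 2 (0.0716). The list's summed level was 1561 CPM in control 2 and 2070 to 2098 CPM in the other controls, and 1368 to 1504 CPM in the CPN libraries. Leaving out any one of control 1, control 3, CPN 1 or CPN 2 reduced the genes called lower to 2 or 3, and without control 1 or CPN 1 there were 0 called higher.

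The samples held the markers of macrophages and of osteoclasts. Macrophage markers summed to between 1709 and 2213 CPM in the controls and between 2024 and 2648 CPM in the CPN libraries, where 2 of 6 were higher (Adgre1 and Itgam) and 0 lower by edgeR, with 3 higher and 0 lower at an unadjusted p of 0.05 and 2 higher and 0 lower by DESeq2 and limma-voom. Osteoclast markers summed to between 3245 and 3502 CPM in the controls and between 948 and 1502 CPM in the CPN libraries, with 5 of 6 tested lower and Mmp9 higher. Calcr and Itgb3, which mark mature osteoclasts, had means of 1.19 CPM or less in both groups. The cells therefore differed in differentiation markers as well as in these families, and the part of that difference in the families' rise was not tested.

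Slfn2 is also abundant in T cells and Slfn4 in granulocytes, so markers of such cells were summed. The T cell list lay between 2.55 and 6.31 CPM in the controls and between 14.8 and 26.5 CPM in the CPN libraries, with 1 of 5 genes tested and higher, Lck (adjusted p = 0.0122), while Cd3g and Cd8a were at 0 in every library. The granulocyte list lay between 0 and 0.117 CPM in the controls and between 18.0 and 34.6 CPM in the CPN libraries, nearly all of it S100a8, the only one of its 4 genes in the files that was tested, while Elane was at 0, S100a9 had 1 count and Mpo 6 counts. The stromal list lay between 0 and 4.67 CPM and between 10.5 and 12.2 CPM, of which Dcn was the only tested gene of 4 and was at 0 in the controls. B cell markers summed to at most 0.468 CPM in any library, dendritic cell markers to at most 3.54 CPM and epithelial markers to at most 1.75 CPM. Apart from Lck, S100a8 and Dcn, each of these markers had a mean of 2.09 CPM or less in both groups. The part of those 3 genes in the families' rise was not tested.

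**Figure D4:**
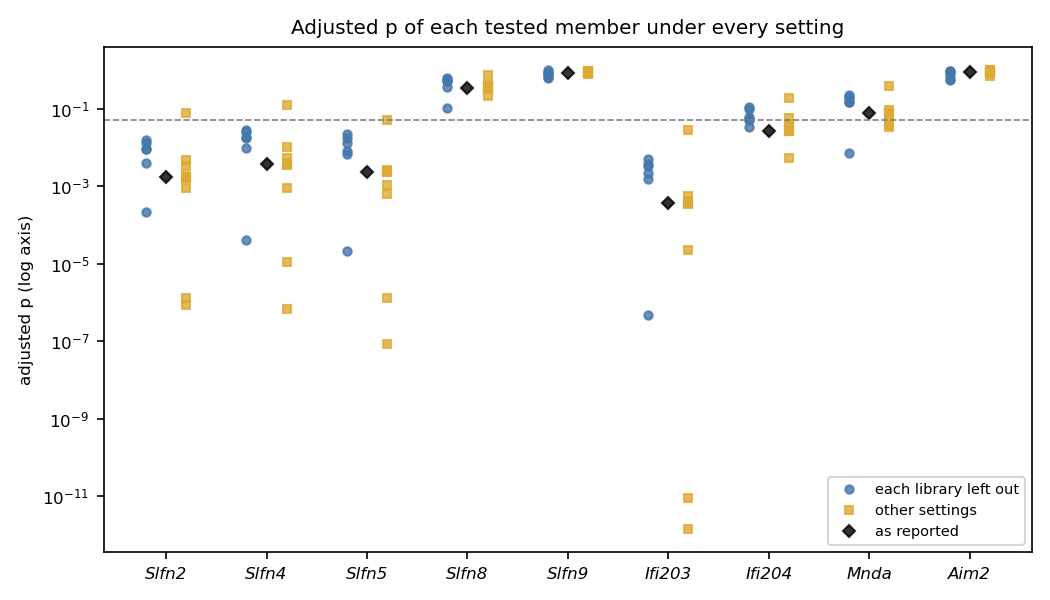
Adjusted p on a log axis for each tested member as reported (black), with each library left out (blue) and under the other settings (yellow), with a dashed line at 0.05. Ifi203 lies below the line throughout, Slfn2, Slfn4 and Slfn5 cross it once, Ifi204 and Mnda lie on both sides of it, and Slfn8, Slfn9 and Aim2 lie above it throughout.

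The calls differed in how firmly they held. Slfn2, Slfn4 and Slfn5 passed in 14 of 15 alternative settings and Ifi203 in 15 of 15, as the plot of adjusted p by setting shows. The exception for the 3 Schlafen genes was the fit without both control 3 and CPN 1, where the adjusted p was 0.0794 for Slfn2, 0.121 for Slfn4 and 0.0518 for Slfn5. Ifi204 passed in 8 of 15 and Mnda in 4 of 15. The motif letters did not divide the members as the calls did, but a gene that did not pass may still have changed. Of the 5 members with the letters, Slfn5 and Ifi203 were higher and Slfn8, Slfn9 and Mnda did not pass, while Slfn2 and Slfn4 were higher without the letters in the window, and no promoter of Ifi204 was in the table. AI607873 held the same matched letters as Ifi203 and Mndal and did not pass. Whether the motif had a part in any of these changes was not tested.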

How the data were processed

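Per the labels' protocols, total RNA was made into libraries by QuantSeq, a 3′ tag method. The authors deposited raw counts per gene, in 1 table for each of the 6 samples. Reads were aligned with Bowtie2 to mm10 and counted with bedtools, per the submitters' processing notes. The sources used here do not give versions, annotation, strand use or the treatment of multiply aligned reads. Entries that shared a symbol with another (79 of 23282) were kept apart.

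CPN was compared with control over all genes by edgeR 4.0.16 in R 4.3.3: TMM scaling, filterByExpr (minimum count 10, minimum total 15) and the quasi-likelihood test, with p adjusted by Benjamini-Hochberg across 11092 genes and called at 0.05. The common biological coefficient of variation was 0.355. SE is the log2 fold change divided by the square root of F, and intervals are 95%. A 0 was taken as fewer than 3 counts, which like every counting interval covers counting error only. Each choice was varied in turn: the test (DESeq2 1.42.0, or limma-voom with limma 3.58.1), the scaling (size factors as in DESeq2, or library totals alone), the low-count filter, a replicate block and the omission of each library. Removal of Rn45s and the fit without control 3 and CPN 1 were chosen after seeing the data, as were the 6 genes whose shares were compared with libraries left out.

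The members and lists were chosen with earlier results of these data known. Named were all members and family genes, the 3 tested genes with the smallest p in each pathway list, and the nearest 3 protein-coding neighbours of each cluster side. Irf9, Stat2, Ifnb1, Ifna4, Pycard, Gsdmd, Il1b, Ccnd2 and Id2 were added after their values were seen. Some genes under this rule are not reported here. Of 22 family entries 21 matched RefSeq. The code was tested on simulated counts.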

Additional observations from a re-analysis of the deposited data

How the results depend on the processing

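Leaving out 1 library at a time gave 884 to 1954 genes called, 525 to 1131 higher and 359 to 823 lower. Without both control 3 and CPN 1 there were 446 called (273 higher and 173 lower) and 1 member higher. The other alternatives gave 1326 to 1955 genes called, with 690 higher and 914 lower for library totals alone against 845 and 709 as reported. Under library totals alone the median over all genes shifted to -0.13 on the log2 scale, and members higher numbered 5. Members higher numbered 6 with DESeq2, limma-voom, no low-count filter or without control 2, and 4 without any other single library. Members lower numbered 0 in all 15 alternatives. Replicate numbers showed no pairing of the samples. Deviations of same-numbered samples correlated at -0.07, 0.01 and 0.04, and not every sample correlated best with its own number. With 3 samples in each group this cannot show that the samples were unpaired. With the replicate block 1326 genes were called and 4 members were higher, Ifi204 being lost (adjusted p = 0.0587), as was Pyhin1 (0.0632). Signs turned in genes that did not pass: Slfn9 between -0.84 and 0.59 with 1 library left out and 0.62 without control 3 and CPN 1, Aim2 between -0.29 and 0.24 (0.24 without control 2 and 0.04 without CPN 2), Pydc3 from -0.11 to 1.08, AI607873 from -0.067 to 0.30, and Slfn10-ps -0.0020 without control 3 and CPN 1. That fit also left 3 canonical interferon-stimulated genes, 2 interferon signalling genes and 1 inflammasome gene higher. The difference in share between CPN and control kept its sign with each library left out, between -17.6 and -13.7 percentage points for Aim2, 13.3 and 19.1 for Mndal, 8.17 and 10.5 for Ifi203, -12.3 and -7.79 for AI607873, 6.08 and 12.1 for Slfn5 and -13.6 and -11.1 for Slfn10-ps. Fits that leave out libraries rest on fewer samples by construction, and the cause of the other changes was not tested. Depth limits Slfn1, Slfn3, Pydc4 and BC094916, which were too low to test.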

Other observations

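Inside the Schlafen cluster lies a long non-coding RNA gene, AI662270, that gave more counts than any gene of either family, 29470 over the 6 libraries. It was chosen after its values were seen. It was at 469.4, 407.8 and 531.1 CPM in the controls and 890.2, 635.1 and 554.6 CPM in the CPN libraries, so that every CPN library was above every control, though CPN 3 only just. The log2 fold change was 0.56 ± 0.19 and did not pass (95% interval 0.15 to 0.98, adjusted p = 0.0725). Over 15 alternatives its adjusted p lay between 0.0238 and 0.305, and it passed in 4, namely DESeq2, limma-voom, no low-count filter and without CPN 3. Its interval lies below those of Slfn5 (from 1.36) and overlaps those of Slfn2 (from 0.94) and Slfn4 (from 0.91).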
